A study of Mus musculus with 12 samples.

Results

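The CC chemokines are small secreted proteins with adjacent cysteines near their N terminus, and 10 of their genes, Ccl2, Ccl3, Ccl4, Ccl5, Ccl6, Ccl7, Ccl9, Ccl12, Ccl17 and Ccl22, were followed here by symbol among the 41709 genes counted in each library. Measured values played no part in applying this rule, but the members were chosen with earlier results of these data known. All 10 passed the filter on low counts in every comparison. The data were RNA-seq read counts of mouse bone marrow-derived dendritic cells (BMDC), which were grown for 10 days in medium with GM-CSF and enriched for MHCII+ cells with magnetic beads. The study asked what β2 integrins do in dendritic cells by removing CD18, the β chain that all β2 integrins share and that is encoded by Itgb2. There were 4 groups of 3 libraries, 12 in all: untreated CD18fl/fl BMDC, CD18fl/fl BMDC exposed to 100 ng/mL of LPS (bacterial lipopolysaccharide, a TLR4 ligand) for 24 h by the labels, or overnight by the study's methods, and CD18CD11c cKO BMDC without and with the same LPS treatment. All 4 groups carried homozygous floxed Itgb2 alleles with exon 3 between loxP sites, made in C57BL/6N embryonic stem cells with the neomycin cassette later removed by Flp, and only the CD18CD11c cKO groups carried a Cre recombinase driven by the CD11c promoter, so that deletion depended on CD11c promoter activity in each cell. The ages of the mice are not given in the sources used here, and nothing in the labels says that replicates came from separate mice or cultures, so p-values measure the spread between these libraries, which may be partly technical.

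Chemokines bind G protein-coupled receptors on leukocytes and direct their migration, and dendritic cells release them to draw other cells to the site where antigen is taken up or presented. Ccl2, Ccl7 and Ccl12 are monocyte attractants that act through CCR2. Ccl3 and Ccl5 act through CCR1, and Ccl4 is a close relative of Ccl3. Ccl6 and Ccl9 are rodent chemokines that act through CCR1, and Ccl17 and Ccl22 are the ligands of CCR4, a receptor of Th2 cells, regulatory T cells and skin-homing T cells. LPS acts through TLR4 to switch on NF-κB and interferon regulatory factors, which drive many of these genes.

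In GRCm39 coordinates, 8 of the 10 genes lay within 1.629 Mb of chromosome 11 and the other 2 on chromosome 8. Ccl2 (chr11:81926397-81928279), Ccl7 (chr11:81936538-81938351) and Ccl12 (chr11:81992671-81994226) stood side by side on the plus strand. Ccl5 (chr11:83416604-83421344), Ccl9 (chr11:83463745-83469462), Ccl6 (chr11:83478708-83483913) and Ccl3 (chr11:83538670-83540181) followed on the minus strand, and Ccl4 (chr11:83553410-83555509) lay next to Ccl3 on the plus strand. Ccl22 (chr8:95472218-95478327) and Ccl17 (chr8:95537081-95538664) were plus-strand neighbours 58.8 kb apart. All are protein-coding, and the exon length ran from 514 bases for Ccl17 to 3006 for Ccl9, while Ccl22 had 2216.

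The 250 bases of the reference genome just before the annotated start of 3 members are shown because the results turn on these genes: Ccl17 and Ccl22 are neighbours whose levels are compared as a pair, and Ccl5 had the largest response to LPS relative to its error. Letters are 5′ to 3′ on the gene's strand, and capitals mark matches to any of 6 motifs named after them; positions are counted back from the gene start that the files give.
Ccl17 (GRCm39, chr8:95536831-95537080, plus strand): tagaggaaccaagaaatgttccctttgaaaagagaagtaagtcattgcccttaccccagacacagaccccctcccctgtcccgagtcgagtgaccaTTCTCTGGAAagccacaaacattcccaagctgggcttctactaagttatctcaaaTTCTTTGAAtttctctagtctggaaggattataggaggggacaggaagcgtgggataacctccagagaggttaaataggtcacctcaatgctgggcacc
Ccl22 (GRCm39, chr8:95471968-95472217, plus strand): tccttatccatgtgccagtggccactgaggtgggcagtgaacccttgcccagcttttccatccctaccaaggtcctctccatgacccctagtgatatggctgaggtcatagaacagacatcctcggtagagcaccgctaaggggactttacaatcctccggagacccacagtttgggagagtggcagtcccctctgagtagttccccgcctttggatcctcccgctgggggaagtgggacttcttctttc
Ccl5 (GRCm39, chr11:83421345-83421594, minus strand): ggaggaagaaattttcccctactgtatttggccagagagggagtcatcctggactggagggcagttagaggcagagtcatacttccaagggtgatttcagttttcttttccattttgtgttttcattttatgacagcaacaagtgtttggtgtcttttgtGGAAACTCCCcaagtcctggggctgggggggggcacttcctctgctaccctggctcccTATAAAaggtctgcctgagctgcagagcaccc
The motifs were the NF-κB consensus, GAAA repeated after any 2 bases (the element of interferon regulatory factors), TTC and GAA around any 4 bases (the spacing STAT6 prefers), TTC and GAA around any 3 bases (other STAT dimers), TGANTCA (AP-1) and TATAAA (the TATA box), searched on both strands in the same window of the 10 members and of 13751 genes with enough reads. In the Ccl5 window the NF-κB consensus matched at positions -90 to -81 from the gene start and TATAAA at -32 to -27. The Ccl17 window held the STAT6 spacing at -154 to -145 and the other STAT spacing at -99 to -91, and no match was found in the Ccl22 window. The NF-κB consensus was present in 8.53% of all windows and in those of Ccl5 and Ccl9, the STAT6 spacing in 4.98% and, among the 10 members, in that of Ccl17, the other STAT spacing in 6.38% and in those of Ccl2 and Ccl17, and TGANTCA in 4.65% and in those of Ccl7 and Ccl9. TATAAA was present in 7.3% of all windows and in 5 of the 10 members, whereas the GAAA repeat, found in 3.05%, was in none. In Ccl7, Ccl12, Ccl4 and Ccl5 the TATAAA match lay within -32 to -22. In Ccl9 it was found only further from the start, at -224 to -219, -94 to -89 and -92 to -87. A match is a description of letters, and the binding of these factors was not measured here.

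The 12 libraries held 29689149 to 34037178 gene reads each. The 4 libraries numbered 3, 1 in each group, stood apart from the others: the 10 members together took 1.71% to 4.66% of their reads, compared with 0.555% to 1.05% in the 8 libraries numbered 1 and 2. Relative to the mean of replicates 1 and 2 of the same group, replicate 3 had 7.12 to 20.8 times the Ccl6 level, 3.36 to 25.4 times that of Ccl17 and 0.0893 to 0.543 times that of Ccl5. Summed markers of mast cells and basophils (6 genes) were also higher in the libraries numbered 3, at 38.5 to 165 CPM (a gene's share of the reads of its library, scaled to a common total) compared with 8.31 to 22.8 in the others, whereas the 5 B cell markers reached 0.637 to 2.55 CPM compared with 8.7 to 137 and the 11 dendritic cell markers 16474 to 23159 CPM compared with 25286 to 46508. Within these lists the genes did not all go the same way. Cpa3 and Gata2 made up most of the mast cell and basophil sum in the libraries numbered 3, at 15.6 to 115 and 22.8 to 50.1 CPM, compared with 0 to 5.92 and 4.43 to 11.2 in the others. Prss34 was at 0 to 1.10 CPM in the former and 0.112 to 7.85 in the latter, and Mcpt8, Ms4a2 and Fcer1a stayed under 2 CPM throughout. The dendritic cell sum came mostly from Cd74 and the MHC class II genes H2-Aa, H2-Ab1 and H2-Eb1, whereas Itgax, which encodes CD11c, went the other way, at 284 to 681 CPM in the libraries numbered 3 and 30.8 to 210 in the others. Of the 11 dendritic cell markers, 10 or 11 had more than 3 reads in every library, and Cd209a was at 0 in the lowest one. The other marker lists were 14 macrophage and monocyte genes at 7453 to 16879 CPM in the libraries numbered 3 and 12433 to 65314 CPM in the others, 11 neutrophil genes at 62.8 to 161 and 81.4 to 1706 CPM, 6 T and NK cell genes at 1.84 to 8.56 and 0.905 to 26.9 CPM, 4 eosinophil genes at 0.153 to 21.3 and 0.633 to 40.4 CPM, and 5 fibroblast genes at 0.0869 to 1.16 and 0.0354 to 11.5 CPM. Lyz2 made up most of the macrophage and monocyte sum, at 5114 to 14354 CPM in the libraries numbered 3 and 10274 to 60908 in the others. The part of any of the listed cell types in the results was not tested. In bulk RNA, fewer cells of a type and less RNA per cell cannot be told apart. Libraries with the same number deviated together across genes, most strongly those numbered 3. Each comparison is therefore given without a block and, where it changes the call, also with the replicate number as a block. Whether the libraries numbered 1 and 2 form pairs is not settled. Itgb2 itself was lower in CD18CD11c cKO BMDC: its levels were 382, 420 and 383 CPM in untreated CD18fl/fl and 120, 162 and 190 CPM in untreated CD18CD11c cKO libraries, and 168, 171 and 268 compared with 114, 89.0 and 118 CPM after LPS (p = 0.1 in either state by an exact, two-sided permutation of the libraries, which cannot go lower with 3 against 3). The counts cover all exons of Itgb2, not the floxed exon alone.

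Ccl5, Ccl6, Ccl9, Ccl17 and Ccl22 carried most of the CC chemokine transcripts. By TPM, a gene's share of transcripts after allowing for its length, and ordered by the mean of 3 libraries, Ccl6 came first in untreated CD18fl/fl BMDC at 2022, 2219 and 17061 TPM (lowest, median and highest library), followed by Ccl5 at 370.5, 3994 and 4484, Ccl22 at 368, 1393 and 1431 and Ccl9 at 518, 559 and 1355. Ccl17 came next at 62.4, 202 and 443 TPM, then Ccl2, Ccl3, Ccl4, Ccl7 and Ccl12, the last at 3.04, 4.41 and 5.09 TPM. The first place of Ccl6 rested on replicate 3, since Ccl5 was above Ccl6 in replicates 1 and 2 and had the higher median. In the order by mean, only Ccl9 and Ccl17 were neighbours whose libraries did not overlap. After LPS, Ccl5 was first in CD18fl/fl BMDC at 13746, 24474 and 25584 TPM, above every library's Ccl17, the next in order. In CD18CD11c cKO BMDC, Ccl17 stood at 373, 1333 and 8124 TPM without LPS and at 954, 1532 and 36315 TPM after LPS. Its mean was second to Ccl6 in the former group and first in the latter, but both places rested on replicate 3. In replicates 1 and 2, Ccl6 and then Ccl5 led without LPS, and Ccl5 led after LPS.

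**Figure D1:**
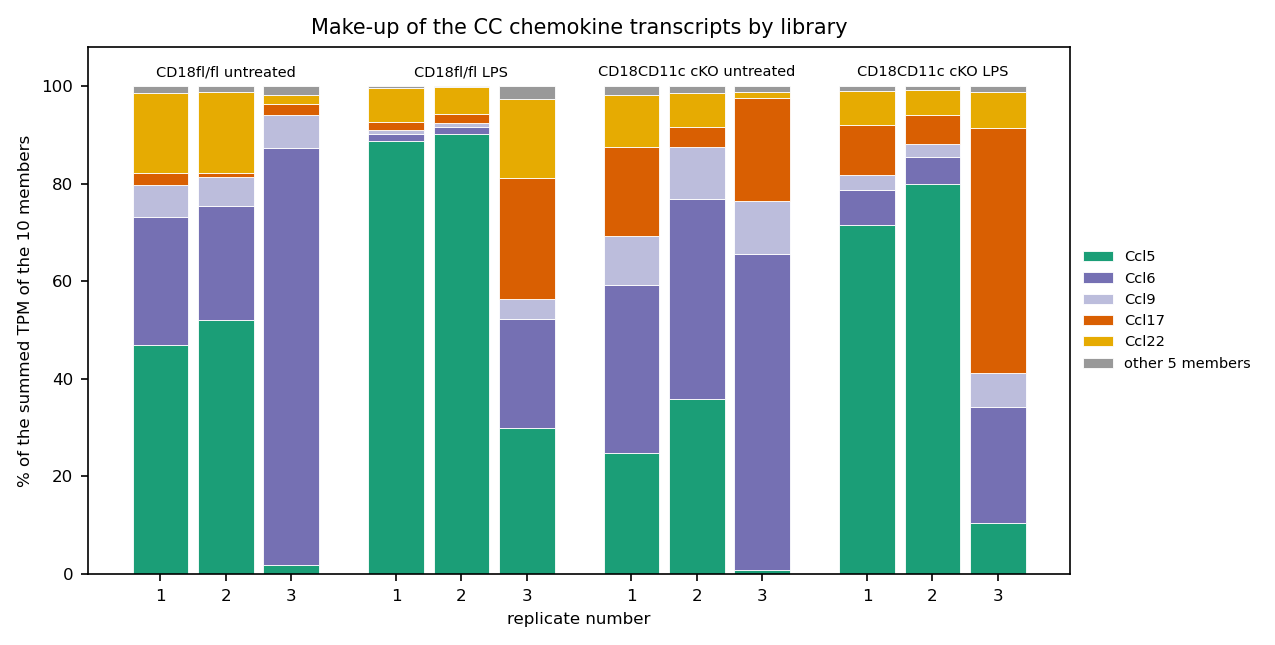
Share of the summed TPM of the 10 CC chemokines (y axis, percent) that each of 5 genes and the other 5 together took in each of the 12 libraries (bars, by group and replicate number). Ccl5 took 88.8% to 90.1% in replicates 1 and 2 of LPS-treated CD18fl/fl BMDC and 71.6% to 79.9% in those of CD18CD11c cKO, whereas Ccl17 took 50.3% in replicate 3 of LPS-treated CD18CD11c cKO.

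The make-up of this pool was set side by side as shares, with no test. Ccl5 took 1.85% to 52.0% of the summed TPM in untreated CD18fl/fl libraries and 29.9% to 90.1% after LPS. The Ccl9 share was 6.01% to 6.78% in untreated CD18fl/fl libraries and 10.2% to 10.8% in untreated CD18CD11c cKO libraries, without overlap. The Ccl17 share was 0.724% to 2.37% in the former and 4.18% to 21.1% in the latter, also without overlap. The Ccl3 share went the other way without overlap, at 0.378% to 0.636% in the former and 0.167% to 0.277% in the latter. Such shares are defined within the 10 members only, so no share of all genes stands beside them. Shares sum to a whole, so that a higher share of 1 gene lowers the others.

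**Figure D2:**
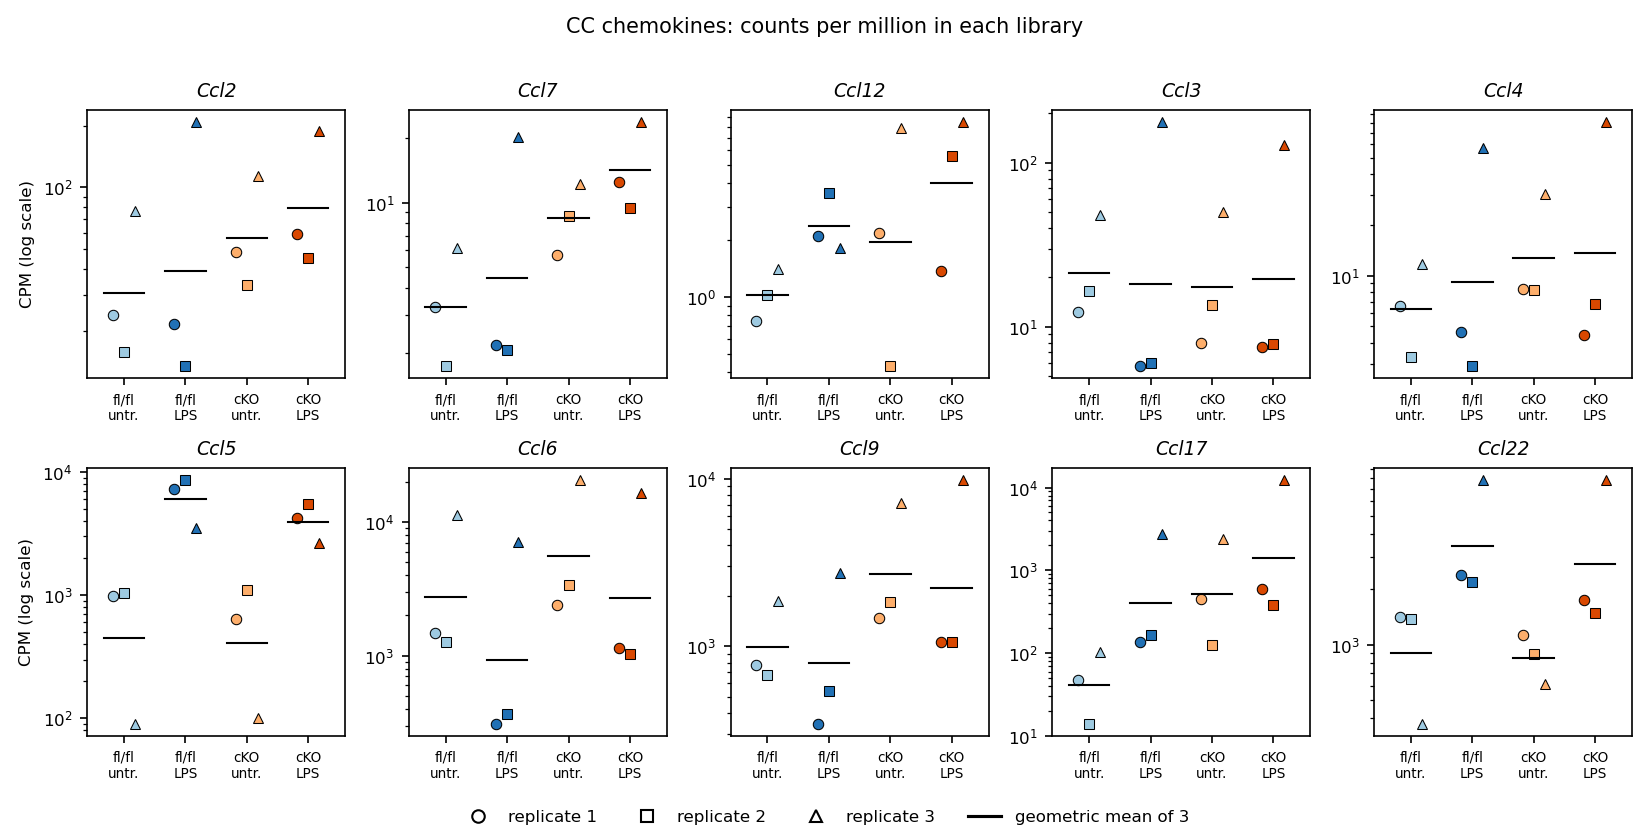
Level of each CC chemokine (y axis, CPM after TMM scaling, log scale) in the 12 libraries, by group (x axis), with the replicate number as the marker shape and the geometric mean of 3 libraries as a line. Replicate 3 (triangles) lay above replicates 1 and 2 in every group for Ccl2, Ccl3, Ccl4, Ccl6, Ccl7, Ccl9 and Ccl17, and below them for Ccl5.

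The first comparison addressed how LPS changed the CC chemokines of BMDC with intact β2 integrins. Without a block, edgeR's quasi-likelihood test called 0 of the 10 members after adjustment over all genes, beside 3.89% of the 12744 genes tested, whereas 3 members (Ccl5, Ccl17 and Ccl22) and 23.8% of all genes were at an unadjusted p under 0.05. DESeq2 called Ccl5 and Ccl22, beside 15.5% of all genes, and gave no adjusted p for 4 members. With the replicate block, Ccl5 and Ccl17 rose and Ccl6 fell, that is 3 of 10 members, beside 12.8% of all genes (6.33% higher and 6.43% lower). In CD18CD11c cKO BMDC the same edgeR test without a block also called 0 members, beside 3.99% of the 12687 genes tested, while 2 members (Ccl5 and Ccl22) and 21.2% of all genes were at an unadjusted p under 0.05. DESeq2 called these 2 members, beside 13.2% of all genes, and gave no adjusted p for 5. With the block, Ccl5 and Ccl17 rose and Ccl6 fell there too, beside 20.2% of all genes (10.2% higher and 9.93% lower). Over the 3 same-numbered pairs, 4 members were higher and 1 lower after LPS in every pair in CD18fl/fl BMDC, beside 25.3% and 29.3% of all genes, and 5 and 1 in CD18CD11c cKO BMDC, beside 29.9% and 27.6%. The 2 comparisons share no libraries. The median log2 fold change of the members was 1.28 and 0.87 in the 2 genotypes, compared with -0.02 and -0.01 over all genes, and with the block it was 0.50 and 0.57. Without the libraries numbered 3, which left replicates 1 and 2 of each group, this median was -0.22 in CD18fl/fl, with 4 members up and 6 down. In CD18CD11c cKO BMDC it was then 0.39, with 6 up and 4 down, compared with -0.07 and -0.06 over all genes. A rise of the members as a group in CD18fl/fl BMDC thus rested on the libraries numbered 3.

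Among Ccl3, Ccl4 and Ccl5, the last, which attracts T cells, monocytes and NK cells, had the clearest rise. It stood at 977, 1035 and 89.8 CPM in untreated CD18fl/fl replicates 1, 2 and 3 and at 7269, 8621 and 3479 CPM after LPS. With CD18 deleted it went from 635, 1097 and 100.4 to 4255, 5480 and 2643 CPM. The untreated and LPS libraries did not overlap in either genotype, which held for 13.6% and 14.7% of all genes in the upward direction. The log2 fold change was 3.20 (SE 0.88) in CD18fl/fl and 2.69 (SE 0.78) in CD18CD11c cKO (edgeR adjusted p = 0.0932 and 0.103). With the replicate block it was 3.71 (SE 0.54) and 3.18 (SE 0.49), with edgeR adjusted p = 0.0126 and 0.00701. Without the libraries numbered 3 it was 2.97 (SE 0.22) and 2.39 (SE 0.33), called in both genotypes (edgeR adjusted p = 1.26e-06 and 0.00782), beside 47.5% and 15.9% of all genes called in that fit. Leaving out 1 library alone made the difference for CD18fl/fl: Ccl5 was called at 2.68 (edgeR adjusted p = 0.0457) without untreated replicate 3 and at 3.49 (edgeR adjusted p = 0.0411) without LPS replicate 3.

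Ccl3 and Ccl4, the MIP-1 proteins that attract monocytes, T cells and NK cells, had no common direction over the replicates. Ccl3 went from 12.3, 16.6 and 47.9 to 5.75, 6.00 and 177 CPM with LPS in CD18fl/fl BMDC, so it was lower in replicates 1 and 2 and higher in replicate 3. With CD18 deleted it stood at 7.97, 13.5 and 50.5 before and 7.52, 7.89 and 128 CPM after LPS, which is the same pattern. Without a block, leaving out the LPS replicate 3 library alone turned Ccl3 to -2.11 and Ccl4 to -0.93 in CD18fl/fl and to -1.73 and -1.55 in CD18CD11c cKO BMDC. Ccl4 went from 6.59, 3.31 and 11.7 to 4.62, 2.91 and 57.2 CPM in the controls. For CD18CD11c cKO BMDC, Ccl4 stood at 8.36, 8.18 and 30.2 and then at 4.46, 6.82 and 81.3 CPM. The log2 fold change of Ccl3 in CD18fl/fl was 1.32 (SE 1.32) without the block and -0.28 (SE 0.71) with it, and without the libraries numbered 3 it was -1.31 (SE 0.25, edgeR adjusted p = 0.0013), a fall. That last fit called 47.5% of all genes.

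Of the CCR4 ligands, Ccl17 was the member with the widest range. Untreated CD18fl/fl replicates 1, 2 and 3 had 47.6, 13.9 and 103 CPM, and the LPS libraries 138, 165 and 2771 CPM, above all untreated ones. The CD18CD11c cKO libraries went from 453, 124 and 2406 to 588, 386 and 12388 CPM, higher in each of the 3 same-numbered pairs although the groups overlapped. The log2 fold change was 4.24 (SE 1.39) in CD18fl/fl (edgeR adjusted p = 0.132) and 2.18 (SE 1.52) in CD18CD11c cKO (edgeR adjusted p = 0.465). Leaving out the LPS replicate 3 library alone turned the latter to -1.11. With the block, Ccl17 rose in both, by 3.32 (SE 0.65, edgeR adjusted p = 0.0281) and 1.42 (SE 0.38, edgeR adjusted p = 0.0401). Without the libraries numbered 3, CD18fl/fl kept its call at 2.30 (SE 0.41, edgeR adjusted p = 0.000692) and CD18CD11c cKO was not called. These fits called 47.5% and 15.9% of all genes, in that order. With the block and an offset for gene length the CD18CD11c cKO call was lost as well (edgeR adjusted p = 0.0647).

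Ccl22, which is also made constitutively by dendritic cells and macrophages, was higher after LPS in all 3 pairs of both genotypes, and the groups did not overlap. It went from 1418, 1375 and 371 to 2390, 2190 and 7840 CPM in CD18fl/fl and from 1129, 890.4 and 615 to 1747, 1495 and 7805 CPM in CD18CD11c cKO BMDC. The increase was much larger in replicate 3, with log2 ratios of 4.40 and 3.66, than in replicates 1 and 2, where it ranged from 0.63 to 0.75. The log2 fold change was 1.97 (SE 0.70) and 2.06 (SE 0.69), with edgeR adjusted p = 0.155 and 0.143. Neither was called with the block (edgeR adjusted p = 0.182 and 0.127). DESeq2 called both (adjusted p = 0.0219 and 0.0137), and without the libraries numbered 3 edgeR called Ccl22 in CD18fl/fl at 0.71 (SE 0.18, edgeR adjusted p = 0.00742) and did not in CD18CD11c cKO BMDC at 0.58 (SE 0.22, edgeR adjusted p = 0.115). The edgeR fits without these libraries called 47.5% and 15.9% of all genes in the 2 genotypes.

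Of Ccl6 and Ccl9, the rodent CCR1 ligands, Ccl6 was lower after LPS in all 3 pairs of both genotypes and Ccl9 in replicates 1 and 2 only. Ccl6 went from 1467, 1263 and 11177 to 308, 369 and 7025 CPM in CD18fl/fl BMDC and was lower in each pair. The CD18CD11c cKO libraries went from 2393, 3403 and 20627 to 1136, 1026 and 16490 CPM, again lower in each pair. With the block it fell by 1.57 (SE 0.34) and by 1.09 (SE 0.29) on the log2 scale (edgeR adjusted p = 0.0365 and 0.0427), the latter call being lost with the gene length offset (edgeR adjusted p = 0.0584), and without the block the values were -0.83 (SE 1.37) and -0.49 (SE 1.25). Of the 14 macrophage and monocyte markers, 7 fell with LPS in each genotype with the block, with 0 and 2 higher. Of all genes, 6.43% fell and 6.33% rose in CD18fl/fl, and 9.93% and 10.2% in CD18CD11c cKO BMDC. The summed level of the 14 went from 9127, 35042 and 36145 (lowest, median and highest) to 7453, 12433 and 14915 CPM in CD18fl/fl libraries. Most of this sum was Lyz2 in every library. It stood at 30342, 31093 and 7003 CPM in untreated replicates 1, 2 and 3 and at 10274, 12524 and 5114 after LPS. The part of these markers in the fall of Ccl6 was not tested. Without a block, leaving out untreated replicate 3 alone turned Ccl6 to 0.92 in CD18fl/fl and to 1.11 in CD18CD11c cKO BMDC, an arm that then no longer held a library numbered 3. Ccl9 went from 772, 676 and 1853 to 343, 542 and 2734 CPM, and in CD18CD11c cKO from 1476, 1841 and 7160 to 1060, 1059 and 9856 CPM. It was thus lower in replicates 1 and 2 and higher in replicate 3 in both genotypes, and its log2 fold change turned from 0.15 (SE 0.81) and 0.20 (SE 1.01) to -0.30 (SE 0.36) and -0.32 (SE 0.28) with the block. Without the libraries numbered 3, Ccl6 was called in both genotypes, at -2.02 (SE 0.19) and -1.53 (SE 0.25), and Ccl9 in CD18fl/fl, at -0.72 (SE 0.22, edgeR adjusted p = 0.0182), but not in CD18CD11c cKO BMDC, at -0.75 (SE 0.21, edgeR adjusted p = 0.0589). Of all genes, these fits called 47.5% in CD18fl/fl and 15.9% in CD18CD11c cKO BMDC. The TPM ratio of Ccl6 to Ccl9 fell in each pair, but the groups overlapped. Exact permutation of the log2 ratios, two-sided, gave p = 0.3 in CD18fl/fl and 0.2 in CD18CD11c cKO. After Benjamini-Hochberg adjustment over 16 such tests the value was 0.686 for both. With 3 against 3 libraries this permutation cannot go below p = 0.1, and it leaves the pairs unused. It thus could not decide whether the responses of Ccl6 and Ccl9 differed.

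The CCR2 ligands were at lower levels and were not called by edgeR with or without the block. Ccl2, the main monocyte attractant, went from 23.9, 15.7 and 76.4 to 21.6, 13.4 and 209 CPM with LPS in CD18fl/fl and from 48.2, 33.5 and 114 to 59.4, 45.4 and 188 CPM in CD18CD11c cKO BMDC. Ccl7, its neighbour, went from 3.28, 1.73 and 6.13 to 2.17, 2.05 and 20.1 CPM in the former and from 5.67, 8.64 and 12.2 to 12.5, 9.45 and 23.7 CPM in the latter. In CD18CD11c cKO BMDC both were higher after LPS in each pair, whereas in CD18fl/fl BMDC Ccl2 was higher in replicate 3 only. Ccl12 stayed under 10 CPM in all 12 libraries, with 0.75, 1.03 and 1.40 CPM in untreated and 2.10, 3.54 and 1.81 CPM in LPS-treated CD18fl/fl BMDC, which did not overlap, and 2.20, 0.431 and 7.91 compared with 1.37, 5.57 and 8.47 CPM in CD18CD11c cKO BMDC, which did. Without the libraries numbered 3, Ccl12 was called higher in CD18fl/fl, by 1.65 (SE 0.59, edgeR adjusted p = 0.0367), beside 47.5% of all genes called in that fit. The other CCR2 ligands were then not called in either genotype.

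**Figure D3:**
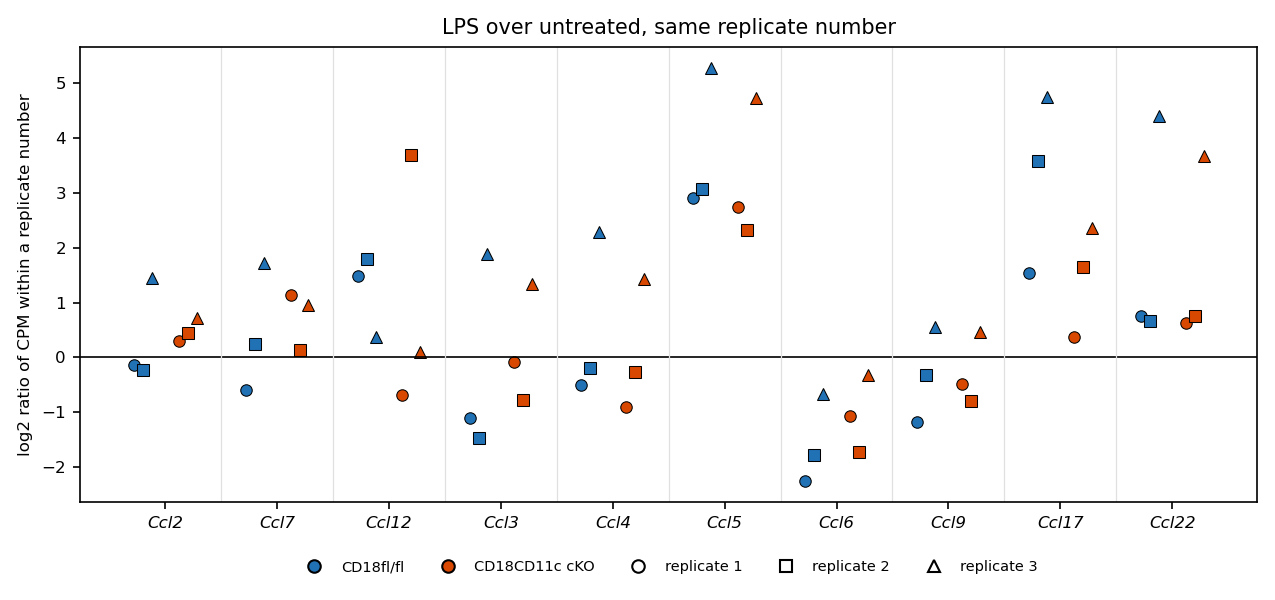
Log2 ratio of CPM, LPS over untreated, between libraries of the same replicate number (y axis) for each CC chemokine (x axis), in CD18fl/fl (blue) and CD18CD11c cKO (orange). Ccl5, Ccl17 and Ccl22 were above 0 and Ccl6 was below 0 in all 3 pairs of both genotypes, whereas Ccl3, Ccl4 and Ccl9 were below 0 in replicates 1 and 2 and above 0 in replicate 3.

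The next comparison addressed what the loss of CD18 changed in untreated BMDC. Ccl17 was the only member whose CD18CD11c cKO libraries all lay above the CD18fl/fl libraries, which held for 11.5% of all genes in that direction. Without a block, edgeR's quasi-likelihood test called 0 of the 12876 genes tested (0%) and so 0 members, while 16.8% of all genes and 3 members (Ccl7, Ccl9 and Ccl17) were at an unadjusted p under 0.05. DESeq2 called Ccl17 (adjusted p = 0.0119), beside 6.73% of all genes, and gave no adjusted p for 1 member. With the replicate block, 6 of the 10 members were called higher and 0 lower in CD18CD11c cKO BMDC (Ccl2, Ccl4, Ccl6, Ccl7, Ccl9 and Ccl17), beside 20.2% of all genes called in either direction, 12.1% higher and 8.16% lower. These 6 were also the members that were higher in each of the 3 same-numbered pairs, beside 23.7% of all genes, and 0 were lower in each, beside 34.4%. The median log2 fold change of the members was 1.11 without and 1.08 with the block, compared with -0.05 and -0.07 over all genes. With the gene length offset added to the block it was only 0.28, compared with -0.03 over all genes. The spread between libraries, as edgeR's common biological coefficient of variation, was 0.509 without the block and 0.281 with it.

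Ccl17 levels of 47.6, 13.9 and 103 CPM in CD18fl/fl replicates 1, 2 and 3 compared with 453, 124 and 2406 CPM in CD18CD11c cKO. Same-numbered libraries thus differed by log2 ratios of 3.25, 3.15 and 4.54. The log2 fold change was 4.26 (SE 1.23, edgeR adjusted p = 0.18), and with the block Ccl17 rose by 3.71 (SE 0.30, edgeR adjusted p = 0.00298). Without the libraries numbered 3 the value was 3.30 (SE 0.73, edgeR adjusted p = 0.0379), and with the block and a gene length offset it was 2.81 (SE 0.33, edgeR adjusted p = 0.00641). Its neighbour Ccl22 was not called and had no common direction: 1418, 1375 and 371 CPM in CD18fl/fl compared with 1129, 890.4 and 615 CPM in CD18CD11c cKO, a log2 fold change of -0.21 (SE 0.52) without and -0.02 (SE 0.26) with the block. The TPM ratio of Ccl17 to Ccl22 was 0.145, 0.0436 and 1.20 in untreated CD18fl/fl replicates 1, 2 and 3 and 1.73, 0.598 and 16.8 in CD18CD11c cKO. It was higher in CD18CD11c cKO in each pair, but the groups overlapped (p = 0.2 by exact permutation of the log2 ratios, two-sided, or 0.686 after Benjamini-Hochberg adjustment over 16 such tests). With 3 libraries a group this permutation cannot go below p = 0.1 and leaves the pairs unused, so it could not decide the question.

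The neighbours Ccl9 and Ccl6 were also among these. Ccl9 went from 772, 676 and 1853 to 1476, 1841 and 7160 CPM, a log2 fold change of 1.75 (SE 0.70) without the block and of 1.51 (SE 0.22, edgeR adjusted p = 0.00563) with it. Ccl6 went from 1467, 1263 and 11177 to 2393, 3403 and 20627 CPM, which without a block turned to -0.57 when CD18CD11c cKO replicate 3 alone was left out, with a log2 fold change of 1.02 (SE 1.11) without and 1.07 (SE 0.20, edgeR adjusted p = 0.0121) with the block. Both were also called without the libraries numbered 3 (edgeR adjusted p = 0.0207 and 0.0315, beside 10.6% of all genes) and with the block and gene length offset (edgeR adjusted p = 0.00819 and 0.0498). Of the 14 macrophage and monocyte markers, 3 were higher (C1qa, C1qb and Fcgr1, by 0.67 to 0.77) and 3 lower (Adgre1, Csf1r and Cd68, by -0.70 to -0.88) in untreated CD18CD11c cKO BMDC with the block. Of all genes, 12.1% were higher and 8.16% lower in that fit. The summed level of the 14 was 16879, 27115 and 65314 CPM there, overlapping the control libraries, and Lyz2 made up most of it. Of the 6 mast cell and basophil markers, only Cpa3 was called, higher by 1.18 (SE 0.27). The part of these cells in the rise of Ccl6 and Ccl9 was not tested.

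Ccl2 rose in CD18CD11c cKO BMDC by 0.96 (SE 0.15, edgeR adjusted p = 0.00737) and Ccl7 by 1.42 (SE 0.35, edgeR adjusted p = 0.0305) with the block, in each pair, whereas Ccl12 was higher in replicates 1 and 3 and lower in replicate 2. Ccl4 rose by 1.08 (SE 0.26, edgeR adjusted p = 0.0276) with the block. These 3 calls were lost when the block was combined with the gene length offset, under which Ccl3 and Ccl5 were instead called lower, at -0.94 (SE 0.20) and -0.95 (SE 0.20), with edgeR adjusted p = 0.026 and 0.0243. With the block alone Ccl3 was at -0.20 (SE 0.19) and Ccl5 at -0.06 (SE 0.19), neither of them called, and in the same-numbered pairs Ccl5 was higher in 2 of 3 and Ccl3 in 1 of 3. These 2 calls thus depended on how gene length was handled. The TPM ratio of Ccl3 to Ccl4, adjacent genes of closely related proteins, was 1.58 to 3.86 in CD18fl/fl and 0.663 to 1.41 in CD18CD11c cKO libraries, and the groups did not overlap (p = 0.1 by the same exact permutation, its lowest possible value, adjusted 0.686).

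**Figure D4:**
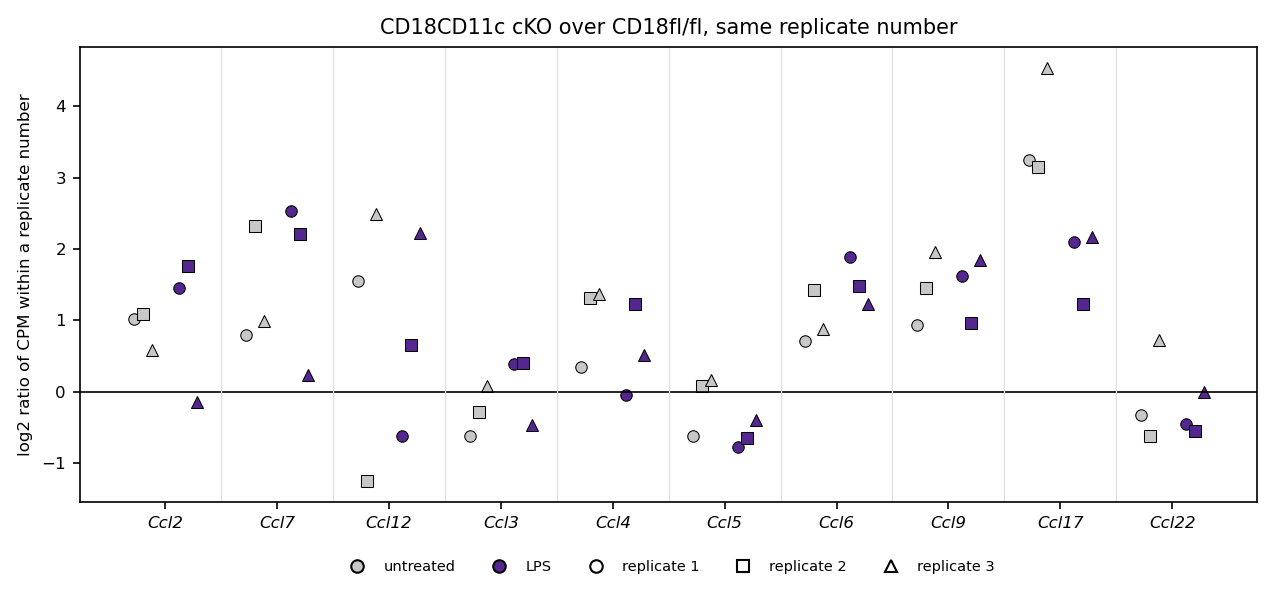
Log2 ratio of CPM, CD18CD11c cKO over CD18fl/fl, between libraries of the same replicate number (y axis) for each CC chemokine (x axis), untreated (grey) and after LPS (purple). Ccl6, Ccl7, Ccl9 and Ccl17 were above 0 in all 3 pairs in both states, Ccl5 was below 0 in all 3 pairs after LPS, and the Ccl17 ratios were lower after LPS (1.23 to 2.16) than without it (3.15 to 4.54).

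After LPS, the genotypes were compared in the same way. Without a block, edgeR's quasi-likelihood test called 0 of 12441 genes (0%) and 0 members, and 9.74% of all genes and 0 members were at an unadjusted p under 0.05. DESeq2 called 0 members, beside 2.52% of all genes, and gave no adjusted p for 7 of them. The groups overlapped for all 10 members, while 9.25% of all genes lay wholly higher in CD18CD11c cKO BMDC. In the same-numbered pairs, 4 members were higher and 2 lower in every pair, beside 22.5% and 27% of all genes. With the replicate block, Ccl6, Ccl9 and Ccl17 were called higher and Ccl5 lower in CD18CD11c cKO BMDC, 3 and 1 of 10 members, beside 6.98% and 3.16% of all genes (10.1% in either direction).

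Ccl17 stood at 138, 165 and 2771 CPM in CD18fl/fl and 588, 386 and 12388 CPM in CD18CD11c cKO BMDC after LPS, and with the block rose by 1.82 (SE 0.21, edgeR adjusted p = 0.00663). Ccl6 stood at 308, 369 and 7025 compared with 1136, 1026 and 16490 CPM and rose by 1.52 (SE 0.16, edgeR adjusted p = 0.00641). Ccl9 stood at 343, 542 and 2734 compared with 1060, 1059 and 9856 CPM and rose by 1.47 (SE 0.19, edgeR adjusted p = 0.00874). The block with gene length offset kept these 3 calls, at 1.08, 1.26 and 1.56 for Ccl17, Ccl6 and Ccl9, as did the fit without the libraries numbered 3, at 1.67, 1.66 and 1.24, which called 4.22% of all genes. Of the macrophage and monocyte markers, Adgre1 and Cd68 were lower with the block, at -1.05 (SE 0.15) and -1.13 (SE 0.16), and 0 of the 14 were higher. In that fit 3.16% of all genes were lower and 6.98% higher. Without a block, leaving out CD18CD11c cKO LPS replicate 3 alone turned Ccl6, Ccl9 and Ccl17 to -1.30, -0.23 and -1.12.

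Ccl5 was the member called lower with the block. It stood at 7269, 8621 and 3479 CPM in CD18fl/fl and 4255, 5480 and 2643 CPM in CD18CD11c cKO BMDC after LPS, lower in each pair. With the block it fell by 0.62 (SE 0.14, edgeR adjusted p = 0.0336), and by 1.35 (SE 0.14) with the gene length offset added. It was not called without the libraries numbered 3. Ccl22 was lower in each pair by a smaller margin, with a log2 fold change of -0.35 (SE 0.15, edgeR adjusted p = 0.189) with the block. With the block and library size scaling Ccl22 was called lower as well, at -0.60 (SE 0.14, edgeR adjusted p = 0.0289). Ccl2 and Ccl7 were called higher only without the libraries numbered 3, by 1.56 (SE 0.28) and 2.36 (SE 0.33), with edgeR adjusted p = 0.0292 and 0.0258. The LPS response itself was compared between genotypes as an interaction over all 12 libraries, and edgeR called 0 of 13752 genes with or without the block, with 1.98% and 0.705% of genes at an unadjusted p under 0.05. DESeq2 called 1 gene (0.00727%), which was no member, and gave no adjusted p for 3 members, Ccl3, Ccl4 and Ccl17. For Ccl17 the difference in response was -2.06 (SE 2.15) without and -1.67 (SE 0.74) with the block, and for Ccl5 it was -0.44 (SE 1.21) and -0.36 (SE 0.68). At an unadjusted p under 0.05 there were 0 members without the block and Ccl17 with it (edgeR adjusted p = 1).

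The genes whose pattern over the 12 libraries was closest to a member were found by the root mean square distance of centred log2 CPM among 13752 genes. Ccl2 was closest to its neighbour Ccl7 (0.49), while the SD of Ccl2 over the libraries was 1.31. Ccl5 was closest to Dusp14, Ifi204 and Ifi213 (0.48 to 0.49, SD 2.21), the last of them interferon-inducible genes. Ccl22 was closest to Slfn5, Gbp3 and Nectin2 (0.49 to 0.57, SD 1.29), Ccl3 to Furin, Coro2a and H1f10 (0.59 to 0.63, SD 1.73) and Ccl9 to Setd4, mt-Tc and Ckm (0.51 to 0.61, SD 1.44). For Ccl17 the nearest were Schip1, Cd69 and AA467197 at 1.12 to 1.35, the largest distances among these members, but its SD of 2.73 was also the largest. The distance is not scaled to the SD, so it does not rank how closely different members were tracked.

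Several receptors of these chemokines moved with LPS. Of 13 CC chemokine receptor genes, 7 were tested in CD18fl/fl BMDC, where 1 rose and 2 fell without the block, and 5 in CD18CD11c cKO BMDC, where 0 rose and 2 fell, beside 3.89% and 3.99% of all genes called in either direction. Ccr2, the receptor of Ccl2, Ccl7 and Ccl12, stood at 598, 542 and 46.2 CPM in untreated and 9.21, 4.77 and 1.17 CPM in LPS-treated CD18fl/fl BMDC and fell by 6.30 (SE 1.22, edgeR adjusted p = 0.0426). In CD18CD11c cKO BMDC it went from 622, 629 and 144 to 2.69, 9.62 and 13.5 CPM and fell by 5.78 (SE 0.86, edgeR adjusted p = 0.0226). Ccr4, the receptor of Ccl17 and Ccl22, went from 1.08, 0.65 and 2.73 to 21.1, 27.9 and 47.7 CPM in CD18fl/fl BMDC and rose by 4.45 (SE 0.63, edgeR adjusted p = 0.0189). Ccr4 in CD18CD11c cKO BMDC went from 1.17, 0.0993 and 1.80 to 11.2, 13.4 and 31.7 CPM and rose by 4.37 (SE 0.60, edgeR adjusted p = 0.0047) with the block. The atypical receptor Ccrl2 rose with the block, by 3.21 (SE 0.27) and 2.69 (SE 0.19).

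Ccr1, the receptor of Ccl3, Ccl5, Ccl6 and Ccl9, fell with LPS and differed between the genotypes. It stood at 542, 491 and 559 CPM in untreated CD18fl/fl and 1041, 1043 and 714 CPM in untreated CD18CD11c cKO BMDC, and at 152, 148 and 149 compared with 485, 365 and 328 CPM after LPS. The CD18CD11c cKO libraries were thus above the CD18fl/fl libraries in both states. With LPS it fell by 1.82 (SE 0.22) and by 1.30 (SE 0.27) without the block, with edgeR adjusted p = 0.0162 and 0.0471. Between the genotypes it was called only with the block, higher in CD18CD11c cKO by 0.86 (SE 0.17, edgeR adjusted p = 0.0151) without LPS and 1.36 (SE 0.16, edgeR adjusted p = 0.00663) with it. Ccr4 was called lower in CD18CD11c cKO after LPS with the block, at -0.86 (SE 0.17, edgeR adjusted p = 0.0242). That made 1 receptor higher and 0 lower of 7 tested without LPS, beside 12.1% and 8.16% of all genes, and 1 higher and 1 lower of 5 after LPS, beside 6.98% and 3.16%.

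**Figure D5:**
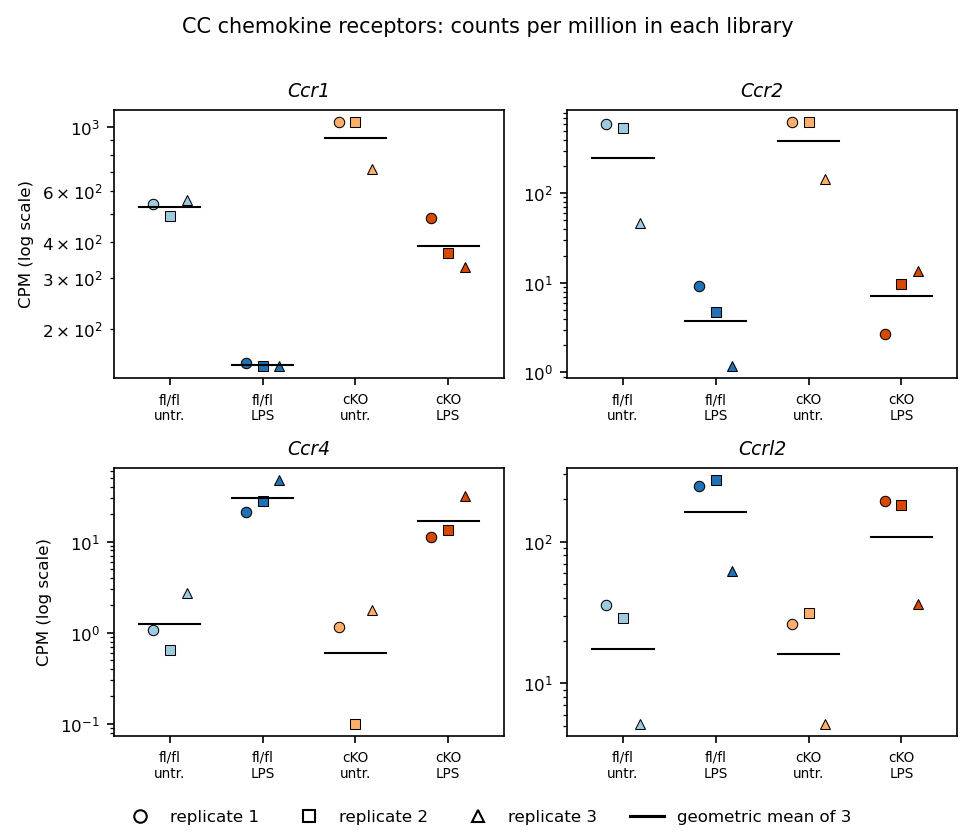
Level of 4 CC chemokine receptor genes that passed the test in at least 1 comparison (y axis, CPM after TMM scaling, log scale) in the 12 libraries, by group (x axis), with the replicate number as the marker shape and the geometric mean of 3 libraries as a line. Ccr1 and Ccr2 were lower and Ccr4 and Ccrl2 higher in every LPS library than in its untreated counterpart of the same number.

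Among 20 transcription and mRNA decay factors of these genes, Stat2 rose and Fos fell with LPS in both genotypes without the block, by 2.96 (SE 0.29) and -2.49 (SE 0.43) in CD18fl/fl and by 3.14 (SE 0.37) and -2.09 (SE 0.42) in CD18CD11c cKO BMDC. With the block, 4 rose and 1 fell in CD18fl/fl, beside 6.33% and 6.43% of all genes, and 5 rose and 2 fell in CD18CD11c cKO BMDC, beside 10.2% and 9.93%. Between the genotypes 0 of the 20 were called without the block. With it, 9 were lower and 0 higher in untreated CD18CD11c cKO BMDC, beside 8.16% and 12.1% of all genes, and 4 were lower and 0 higher after LPS, beside 3.16% and 6.98%. The list's median log2 fold change was -0.54 and -0.27, compared with -0.07 and -0.09 over all genes. Among those lower without LPS were Fos, an AP-1 subunit, at -1.71 (SE 0.15), Jun, its partner, at -0.92 (SE 0.16) and Zfp36, which speeds the decay of AU-rich mRNAs, at -0.90 (SE 0.15).

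Of 15 genes of chemokine receptor signalling, Rgs1 and Pik3r5 rose and Rgs2 fell with LPS in both genotypes, all with the block only. In that fit 6.33% of all genes rose and 6.43% fell with LPS in CD18fl/fl, and 10.2% and 9.93% in CD18CD11c cKO BMDC. Between the genotypes, also with the block only, 1 was higher and 3 lower in untreated CD18CD11c cKO BMDC, beside 12.1% and 8.16% of all genes. After LPS 1 was higher and 1 lower, beside 6.98% and 3.16%. The list's median was -0.39 without and -0.11 with LPS, compared with -0.07 and -0.09 over all genes. The higher gene was Rgs2, which limits G protein signalling, by 0.64 (SE 0.15) and 1.15 (SE 0.18). The lower ones were Gnai2, an inhibitory G protein subunit, at -0.57 (SE 0.15) without and -0.60 (SE 0.13) with LPS, and, without LPS, the arrestins Arrb1 and Arrb2 at -0.61 (SE 0.14) and -0.51 (SE 0.14). Of 7 proteases that trim chemokines, 2 were higher and 1 lower in untreated CD18CD11c cKO BMDC with the block, beside the same 12.1% and 8.16% of all genes. After LPS 1 was higher and 1 lower, beside 6.98% and 3.16%. The median of the proteases was -0.28 without and -0.09 with LPS. Mmp12, the macrophage elastase, was higher in both states, by 1.23 (SE 0.28) and 1.87 (SE 0.17). Without LPS Dpp4 was higher by 0.82 (SE 0.21) and Mmp14 lower, at -0.96 (SE 0.19), and after LPS the lysosomal protease Ctsd was lower, at -0.62 (SE 0.13). With LPS, Mmp12 fell by 1.48 (SE 0.25) in CD18fl/fl, and in CD18CD11c cKO BMDC Mmp2 rose by 0.98 (SE 0.28) and Dpp4 fell by 0.91 (SE 0.23). These LPS calls came with the block only, beside the shares of all genes given above for that fit. Without it 0 of the 7 were called in either genotype, beside 3.89% and 3.99% of all genes. The other CC chemokines were close to silent: of 13 listed, 3 to 5 passed the filter on low counts depending on the comparison, 0 were called with or without the block, the highest value in any library was 7.19 CPM, and 5 were at 0 in all 12 libraries.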

How the data were processed

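RNA-seq libraries of 12 BMDC samples were prepared from poly(A) RNA with 15 PCR cycles and read as single ends of 59 bases, without molecular identifiers. The authors counted reads per gene in CLC Genomics Workbench, and the deposited files hold whole-number counts per gene (total, unique, exon and intron reads) and TPM, which the authors scaled for exon length and depth. The submitters' processing notes list GRCm38, whereas the study's methods name GRCm39, and both ends of 9988 of 13406 genes matched by name lie within 1000 bases of the GENCODE annotation of GRCm39, whose coordinates are used here. Of the 10 members, 7 had both ends within this tolerance. The upstream windows start from the deposited gene starts for every member. The annotation release the authors used is not given in the sources used here.

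Groups were taken from the sample labels. Total gene reads were filtered with filterByExpr (minimum count 10), scaled by TMM, and fitted with edgeR 4.0.16 in R 4.3.3 (glmQLFit and glmQLFTest) for LPS against untreated in each genotype, for the genotypes in each state and for the interaction, with Benjamini-Hochberg adjustment over all genes and a threshold of 0.05. SE is the log2 fold change over the square root of F. The labels number the replicates of every group 1 to 3, and same-numbered libraries deviated together from their group means in every comparison (correlations 0.265 to 0.716 over 13752 genes). The pairing was strongest for replicate 3, at 0.524 to 0.716, compared with -0.514 to -0.321 with another number at most. For replicates 1 and 2 it was 0.265 to 0.451, compared with up to 0.154 to 0.334 with another number, which in 1 of 8 cases was the higher value. Every same-numbered correlation was above 0.1, and on this ground the fit with the replicate number as a block is given beside the other. This cannot show that the libraries numbered 1 and 2 are pairs, since correlations between their different numbers passed 0.1 as well. Deviations are taken from a mean of 3 libraries, so an outlying replicate 3 alone makes replicates 1 and 2 deviate alike. Calls made with the block rest on that pairing. CPM are TMM-scaled over all 12 libraries. Ratios of TPM and Itgb2 were compared by exact permutation tests (SciPy 1.17.1). Alternatives were RLE size factors, no scaling factor, no filter, DESeq2 1.42.0, unique reads, a gene length offset, 1 fit of all 12 libraries and leaving out each library in turn; leaving out the libraries numbered 3, and the block combined with RLE factors or no scaling, were added after seeing the data. No 2 libraries agreed within sampling noise (smallest chi-squared per degree of freedom 43.5 over 66 pairs). The edgeR steps were tested on simulated data.

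At least 99.2% of each member's reads were unique. Ccl12 had 13 to 273 reads a library and the other members 55 or more, so that 3 libraries a group limit the precision rather than depth, Ccl12 apart. The members and gene lists were chosen with earlier results of these data known. The text names all 10 members, Itgb2, and from each list only genes past the threshold, at most 4 per direction and comparison. A few listed genes are not reported here, and the lists' counts leave them out. Marker lists of 8 cell types were summed per library.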

Additional observations from a re-analysis of the deposited data

How the results depend on the processing

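Without a block, 0 members were called by edgeR in every comparison, and the counts stayed at 0 with RLE size factors, library size scaling, unique reads and 1 fit of all 12 libraries; without the filter 1 member was called higher for LPS in CD18CD11c cKO. DESeq2 called 2, 2 and 1 members higher for LPS in CD18fl/fl, LPS in CD18CD11c cKO and the untreated genotype comparison, and 0 after LPS. With the replicate block, 2 higher and 1 lower, 2 and 1, 6 and 0, and 3 and 1 members were called in these 3 comparisons and in the genotype comparison after LPS; with RLE size factors added the counts were identical. The block with library size scaling gave 2 and 1, 1 and 1, 4 and 0, and 3 and 2, and the block with the gene length offset 2 and 1, 1 and 0, 3 and 2, and 3 and 1. Leaving out the libraries numbered 3, which keeps only replicates 1 and 2 of each group, gave 4 higher and 3 lower, 1 and 1, 4 and 0, and 5 and 0. These fits called 47.5%, 15.9%, 10.6% and 4.22% of all genes in either direction. Leaving out 1 library gave 0 to 1 higher and 0 lower. The interaction called 0 members throughout. Library size scaling moved the median of all genes to -0.32, -0.23, -0.44 and -0.37 in the 4 comparisons between groups.

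Directions turned as follows, on the log2 scale; the cause was not tested. For LPS in CD18fl/fl, Ccl3 and Ccl9 were at -0.28 and -0.30 with the block, -0.51 and -0.27 with the length offset added, -0.25 and -0.27 with RLE added and -0.62 and -0.64 with library size added, Ccl9 at -0.049 with library size scaling, and Ccl2, Ccl7, Ccl3, Ccl4 and Ccl9 at -0.18, -0.25, -1.31, -0.40 and -0.72 without the libraries numbered 3. For LPS in CD18CD11c cKO, Ccl9 was at -0.32 with the block and -0.31 with RLE added, Ccl4 and Ccl9 at -0.056 and -0.27 with the length offset added, Ccl3, Ccl4 and Ccl9 at -0.082, -0.15 and -0.53 with library size added, and at -0.59, -0.66 and -0.75 without the libraries numbered 3. For the genotype after LPS, Ccl2 was at -0.080 with library size scaling, Ccl3 at 0.065 with the block, 0.10 with RLE added and 0.37 without the libraries numbered 3, and Ccl4 at -0.10 with the block and length offset. For the interaction, Ccl7 and Ccl3 were at 0.021 and 0.31 with the block, 0.027 and 0.41 with the length offset added, and 0.042 and 0.38 with library size added, Ccl3 at 0.25 with RLE added, and Ccl2, Ccl7, Ccl3 and Ccl22 at 0.49, 0.81, 0.77 and -0.07 without the libraries numbered 3.

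Leaving out 1 library without a block, which leaves the library number unbalanced, turned these values. For LPS in CD18fl/fl, Ccl2 ranged from -1.13 to 2.04, Ccl7 from -0.80 to 1.70, Ccl3 from -2.11 to 2.13, Ccl4 from -0.93 to 2.13, Ccl6 from -3.76 to 0.92 and Ccl9 from -1.30 to 0.74. For LPS in CD18CD11c cKO, Ccl2 ranged from -0.40 to 1.25, Ccl12 from -0.10 to 1.96, Ccl3 from -1.73 to 2.16, Ccl4 from -1.55 to 1.92, Ccl6 from -3.12 to 1.11, Ccl9 from -1.81 to 1.27 and Ccl17 from -1.11 to 3.99. For the untreated genotypes, Ccl3 ranged from -1.15 to 0.78, Ccl5 from -0.88 to 0.38, Ccl6 from -0.57 to 2.73 and Ccl22 from -0.63 to 0.064. For the genotypes after LPS, Ccl2 ranged from -0.68 to 2.48, Ccl3 from -3.08 to 3.04, Ccl4 from -1.98 to 3.05, Ccl6 from -1.30 to 4.21, Ccl9 from -0.23 to 3.18, Ccl17 from -1.12 to 4.89 and Ccl22 from -1.39 to 0.69. For the interaction, Ccl2 ranged from -1.47 to 1.63, Ccl7 from -0.95 to 1.497, Ccl12 from -1.24 to 0.74, Ccl3 from -2.94 to 3.05, Ccl4 from -3.05 to 1.86, Ccl5 from -0.95 to 0.29, Ccl6 from -2.17 to 3.20, Ccl9 from -1.85 to 1.44, Ccl17 from -5.24 to 0.64 and Ccl22 from -1.08 to 0.90. Groups of 3 libraries are too small for a rule on outlying samples.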
